A study of Mus musculus with 2 samples.

Results

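The myosin light chain family is followed here across the cells of the embryonic mouse heart through 9 genes: Myl1, Myl2, Myl3, Myl4, Myl6, Myl7, Myl9, Myl12a and Myl12b. They were chosen by name from the 31053 genes that both count tables list, and each was matched by its symbol. E12.5 hearts were digested with TrypLE, and single cells were profiled with a droplet kit that tags the 3′ ends of RNA molecules. The control carried Tbx18-Cre; YFP/+ and the mutant carried Tbx18-Cre; Prmt1 fl/fl;YFP/+, so both genotypes held the Cre driver and the YFP reporter. Prmt1 encodes an arginine methyltransferase, and by the series title its loss is specific to the epicardium. Each genotype gave 1 library, with neither the number of embryos nor any sort stated in the sources used here, so no difference below has a replicate check or a test.

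Each head of a conventional myosin carries an essential and a regulatory light chain, which stiffen the lever arm that converts ATP hydrolysis into movement. Among the cardiac members, Myl2 is the regulatory chain of adult ventricles and Myl7 that of adult atria, while Myl3 is the ventricular and Myl4 the atrial essential chain. Myl1 is the essential chain of fast skeletal muscle. Myl6 is the essential chain of smooth muscle and non-muscle cells, and Myl9, Myl12a and Myl12b are the regulatory chains of smooth muscle and non-muscle myosin, where phosphorylation by light chain kinases turns contraction on. In the embryonic heart the cardiac isoforms overlap before they settle into their chambers.

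Levels are counts of unique molecular identifiers (UMIs) summed over the cells of a group and scaled to 1000000 UMIs of that group, written CPM. A UMI of a 3′ tag stands for 1 molecule whatever the length of the gene, so levels of different members can be set side by side without a length correction. Brackets give exact 95% intervals, which cover counting error only and not differences between embryos. Cells were grouped with marker genes outside the family. The control held 1520 ventricular and 485 atrial cardiomyocytes, 187 epicardial, 896 mesenchymal, 100 outflow wall, 221 endothelial, 77 macrophage and 1830 red cells. The mutant held 1288, 328, 321, 1506, 71, 275, 73 and 2112 cells in the same order. Median UMIs per cell were 11159 and 12395 in ventricular cells of the control and mutant, 12943 and 12911 in atrial cells, and 2644 and 2940 in epicardial cells. In red cells they were 1515 and 1686. Both libraries shared 8 cell barcodes. Prmt1 stood at 436 CPM in control and 361 CPM in mutant epicardial cells, but a 3′ tag outside the deleted part is made after deletion too, so these values do not check the genotypes.

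In these hearts the cardiac light chains parted by chamber in an unequal way. Myl2 was nearly confined to ventricular cells and Myl3 was much higher in them than in atrial cells. Myl7 and Myl4 were high in both chambers and higher in the atria. Myl7 also stood in epicardial cells at close to its ventricular level, while Myl2, Myl3 and Myl4 did not. Of the non-muscle chains, Myl6 was present in every group examined. Myl12a and Myl12b were too, except in red cells. There they stood at 14.9 to 59.9 CPM, beside trace levels of Myl7 at 79.9 CPM in the control and 57.2 CPM in the mutant. The panels of levels by cell group show all 9 members.

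**Figure D1:**
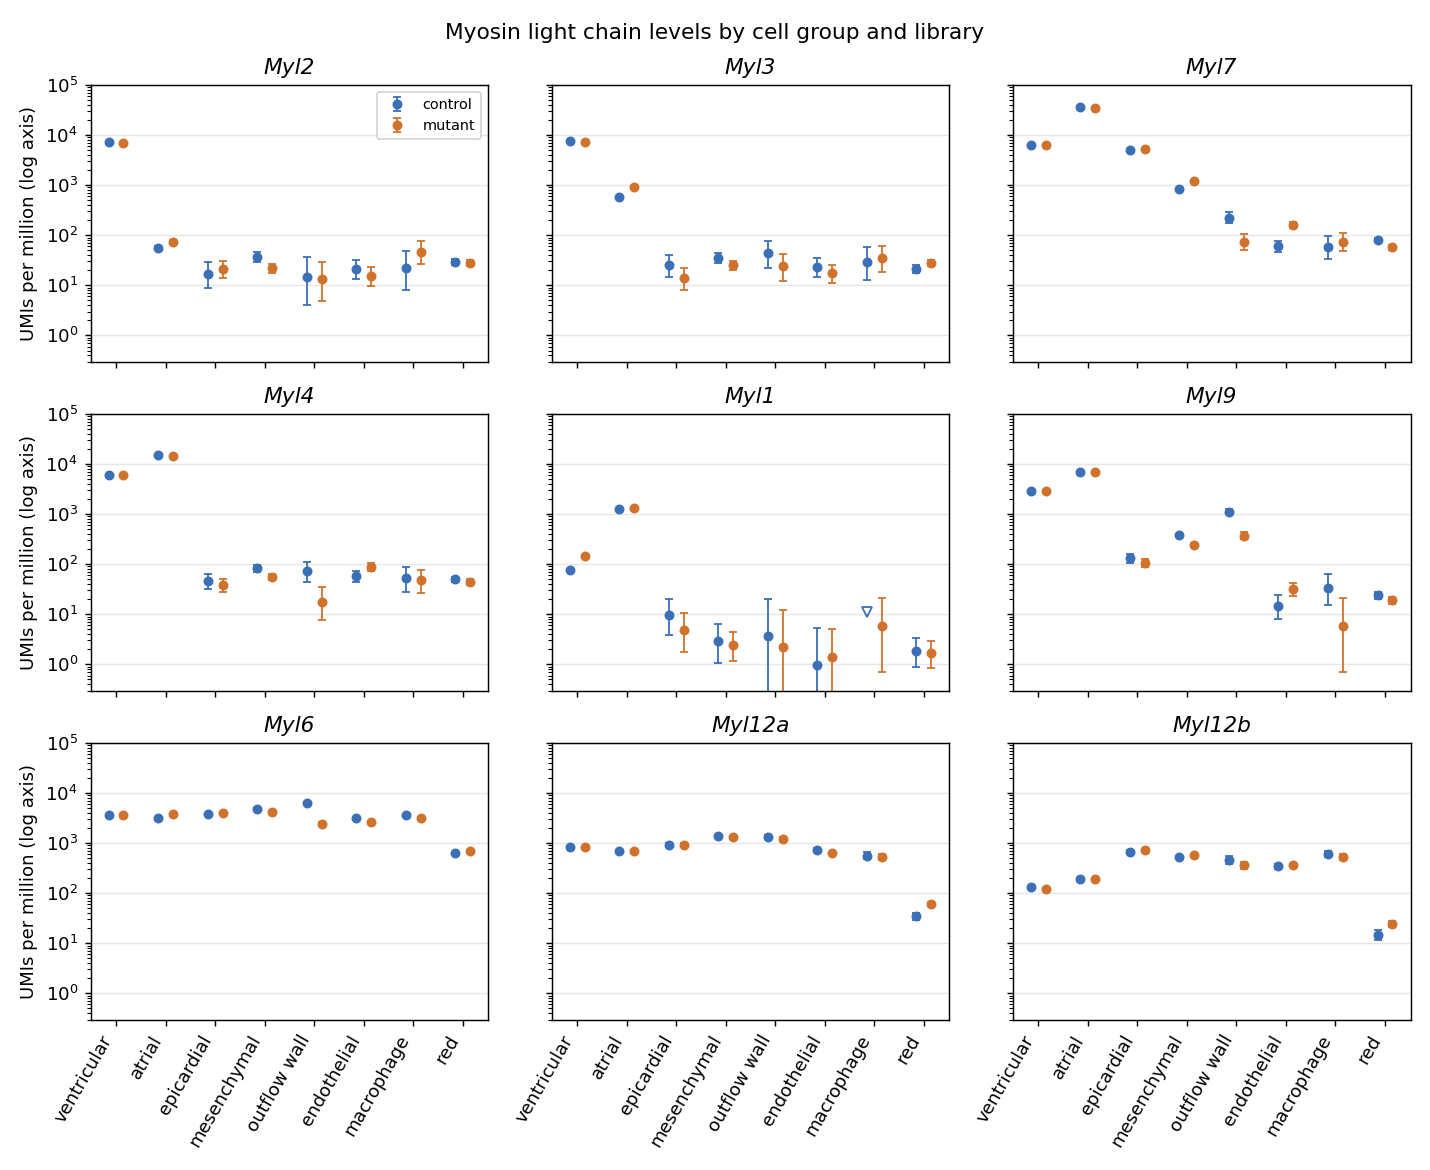
Level of each member in CPM (log axis) in 8 cell groups, control in blue and mutant in orange; bars are exact 95% counting intervals, cut at the lower edge where they run below it, and the open triangle is the level that a count of 0 allows (3 UMIs). Myl7 stands near 5000 CPM in epicardial cells of both libraries, where Myl2, Myl3 and Myl4 stand between 13.7 and 46.1 CPM.

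The promoters of 3 members hold a CArG box, the site read by serum response factor, a regulator of muscle and cytoskeletal genes. They belong to Myl7, to the ventricular Myl3 and to the smooth muscle type Myl9, and are shown because these members have different patterns over the cell types described below. Each window has 90 bases of the gene's own strand, 5′ to 3′, from RefSeq on GRCm38, with the CArG box in capitals. The motif is a palindrome and was searched in the 250 bases before each annotated start, without regard to overlap with other motifs. Of 32851 such windows over all genes, 1.47% held a match.
Myl7 (chr11:5898794-5898883, minus strand, box 61 bases before the start): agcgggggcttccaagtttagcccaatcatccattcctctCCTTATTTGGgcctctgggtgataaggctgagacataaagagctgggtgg
Myl3 (chr9:110763553-110763642, plus strand, box 85 bases before the start): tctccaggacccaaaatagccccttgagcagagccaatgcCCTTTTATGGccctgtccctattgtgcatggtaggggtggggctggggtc
Myl9 (chr2:156775263-156775352, plus strand, box 161 bases before the start): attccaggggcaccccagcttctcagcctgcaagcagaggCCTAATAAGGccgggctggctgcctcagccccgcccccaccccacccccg
A further match lay before a second RefSeq start of Myl6, 815 bases from the nearest coding start of GENCODE M21. No match lay in the windows of Myl1, Myl4, Myl12a and Myl12b, which says only that these letters are not there. The RefSeq starts of Myl2 lay 7762 and 8227 bases from the nearest GENCODE coding start, so its promoter is not described. A match is a description of the sequence and not evidence of binding.

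The chamber contrast was read within each library. Of the 9 members, 4 were at least 2-fold higher in atrial than in ventricular cardiomyocytes in the control and 4 in the mutant, and 2 were at least 2-fold lower in each. The same members were counted in both libraries. Among 5514 genes with at least 10 CPM on average in the control, 2.38% were 2-fold higher and 1.02% were 2-fold lower in the atria. Among 5557 genes in the mutant these shares were 1.94% and 0.918%. In either direction, 3.39% of genes in the control and 2.86% in the mutant passed 2-fold, against 6 of the 9 members in each. The median log2 ratio of atrial to ventricular level was 0.50 over the members and 0.11 over all genes in the control, and 0.60 and 0.02 in the mutant. The members thus held more chamber differences than genes at large, though they were named with earlier results known.

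Myl2 (chromosome 5, 122100951 to 122113472 in GRCm38) had the widest contrast. It stood at 7246 CPM in ventricular and 56.3 CPM in atrial cells of the control, and at 7047 and 73.8 CPM in the mutant. The ventricular level was 129-fold (118 to 141) the atrial one in the control and 95.5-fold (87.4 to 105) in the mutant, both far beyond counting error. At least 1 Myl2 UMI was found in 129 of 485 control and 105 of 328 mutant atrial cells. After every cell was thinned to 1500 UMIs, the share of atrial cells with one was 5.60% in the control and 7.62% in the mutant. The corresponding share in red cells was 4.49% and 4.12%, with 895 and 753 red cells too shallow to be thinned. Before thinning, the same cells gave 26.3% and 32.0% in the atria and 10.1% and 8.54% among red cells. Atrial cells were deeper and lost more UMIs to thinning, so the thinned shares do not compare amounts per cell.

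Myl3 (chromosome 9, 110741861 to 110769798), the essential chain that pairs with it, had a smaller contrast. Ventricular and atrial levels were 7727 and 571 CPM in the control, a ratio of 13.5 (13.2 to 13.9). In the mutant they were 7131 and 933 CPM, a ratio of 7.64 (7.45 to 7.84). Myl3 was present in 36.3% of thinned control and 54.6% of thinned mutant atrial cells, against 2.89% and 3.83% of thinned red cells.

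Myl7 (chromosome 11, 5896637 to 5898782) was the most abundant gene of all 31053 in the atrial cells of both libraries. It stood at 36442 CPM in atrial and 6393 CPM in ventricular cells of the control, 5.70-fold (5.67 to 5.73) higher in the atria. In the mutant it stood at 34675 and 6286 CPM, 5.52-fold (5.48 to 5.55) higher. Ventricular cells were therefore far from free of the atrial regulatory chain: Myl7 was the 12th most abundant gene there in both libraries and Myl2 the 10th.

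Myl4 (chromosome 11, 104550663 to 104595753), the atrial essential chain, stood at 15019 and 5945 CPM in atrial and ventricular cells of the control. In the mutant the levels were 14746 and 5997 CPM. The atrial excess was 2.53-fold (2.51 to 2.55) and 2.46-fold (2.44 to 2.48), about the same in both libraries and much smaller than that of Myl7. The atrial chains thus overlapped with ventricular expression more than the ventricular chains did with atrial expression.

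Myl1 (chromosome 1, 66924295 to 66945404), known from fast skeletal muscle, was also an atrial transcript at this stage. It stood at 1274 CPM in atrial and 76.8 CPM in ventricular cells of the control, a ratio of 16.6 (15.8 to 17.4). In the mutant it stood at 1325 and 146 CPM, a ratio of 9.06 (8.70 to 9.43). By ratio it was the most atrial member in both libraries, ahead of Myl7, although its level was far lower.

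Myl9 (chromosome 2, 156775420 to 156781658), the smooth muscle type regulatory chain, was high in cardiomyocytes. It stood at 7000.4 CPM in atrial and 2905 CPM in ventricular cells of the control and at 6990.1 and 2931 CPM in the mutant. The atrial excess was 2.41-fold (2.38 to 2.44) and 2.38-fold (2.36 to 2.41). Both cardiomyocyte levels lay above those of every non-muscle group measured. The highest of these was 1715 CPM, from 72 UMIs in the 15 mutant cells with megakaryocyte markers, and the next was 1122 CPM in control outflow wall cells.

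The housekeeping chains differed less by chamber than the other members. Myl6 stood at 3706 CPM in ventricular and 3192 CPM in atrial control cells, and at 3614 and 3851 CPM in the mutant, so the order of the chambers differed between the libraries. Myl12a was slightly lower in the atria, at 0.824 and 0.855 of its ventricular level. Myl12b was higher, at 1.44-fold (1.36 to 1.53) and 1.56-fold (1.46 to 1.67). Its log2 ratio lay above those of 91.6% of genes tested in the control and 95.5% in the mutant. None of these 3 passed 2-fold.

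**Figure D2:**
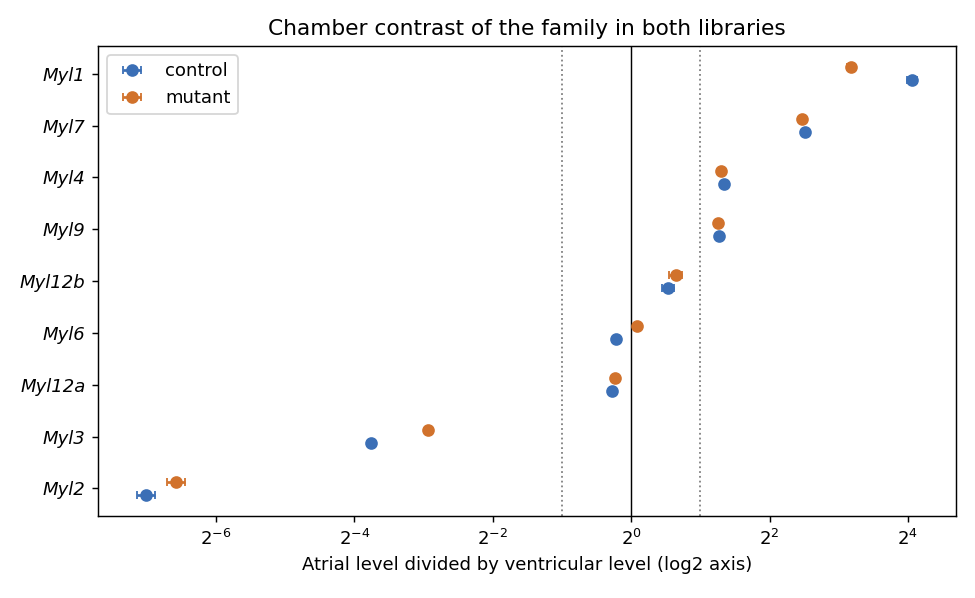
Atrial level divided by ventricular level (log2 axis) for the 9 members, control in blue and mutant in orange; bars are exact 95% counting intervals, the solid line marks equal levels and the dotted lines 2-fold. Myl1, Myl7, Myl4 and Myl9 lie beyond 2-fold on the atrial side and Myl3 and Myl2 on the ventricular side in both libraries.

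Cells were also compared by the balance of a ventricular and an atrial chain of the same kind. Among the regulatory chains, Myl7 gave 46.9% (46.7 to 47.0) of Myl2 and Myl7 UMIs in ventricular cells of the control and 47.1% (47.0 to 47.3) in the mutant. In atrial cells it gave 99.8% in both. Per cell, with at least 20 UMIs of the pair, the ventricular balance was wide. The middle 90% of control ventricular cells ranged from 10.0% to 82.2% Myl7 around a median of 32.4%. In the mutant they ranged from 18.9% to 74.4% around a median of 39.5%. Few ventricular cells were as one-sided as atrial ones: 33 of 1510 in the control and 17 of 1280 in the mutant had over 90% Myl7, against 482 of 484 and 328 of 328 atrial cells.

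The essential chains were balanced more narrowly. Myl4 gave 43.5% of Myl3 and Myl4 UMIs in control ventricular cells and 45.7% in mutant ones, with the middle 90% of cells between 20.8% and 61.4% and between 28.3% and 63.1%. In atrial cells Myl4 gave 96.3% and 94.0%. Cardiomyocytes whose chamber markers were mixed, 131 in the control and 63 in the mutant, stood in between by pooled UMIs. Myl7 gave 71.7% of the regulatory pair in these control cells and 94.2% in the mutant ones, and Myl4 gave 61.0% and 80.7% of the essential pair. Per cell the libraries differed: the median Myl7 share was 39.7% in the control, with 74 of 130 cells under 50%. In the mutant it was 98.8%, with 45 of 62 cells over 90%. The chamber classes are ranges of a marker score, and 270 control and 185 mutant cardiomyocytes lay near a limit.

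**Figure D3:**
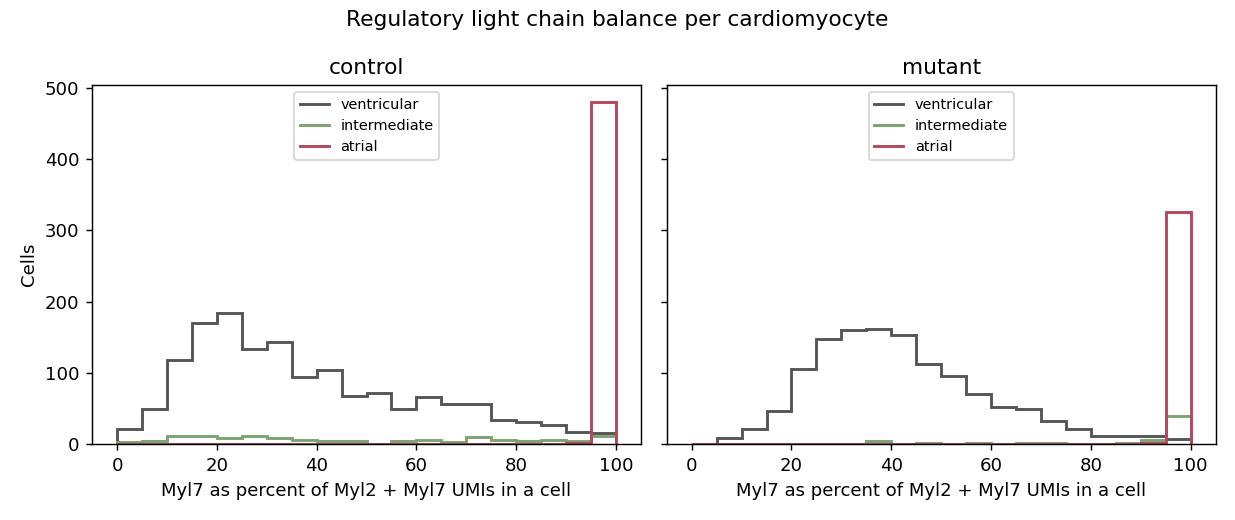
Number of cells (vertical axis) by Myl7 as a percent of the cell's Myl2 and Myl7 UMIs (horizontal axis, steps of 5) for ventricular, intermediate and atrial cardiomyocytes with at least 20 such UMIs. Ventricular cells spread widely around medians of 32.4% in the control and 39.5% in the mutant, and atrial cells sit in the last step.

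Within the ventricle, Myl7 went against Nppa, the natriuretic peptide gene of the trabecular layer. Ventricular cells with at least 5000 UMIs were split by Nppa at 1 and 10 UMIs per 10000. Myl7 stood at 8556 CPM in the 806 control cells under 1, at 3781 CPM in the 341 between, and at 3631 CPM in the 217 with 10 or more. In the mutant the 660, 307 and 254 cells stood at 7217, 5558 and 5012 CPM. Cells low in Nppa thus held 2.36-fold the Myl7 of cells high in Nppa in the control and 1.44-fold in the mutant.

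Myl1 went the other way, from 55.4 through 91.3 to 121 CPM in the control and from 113 through 160 to 209 CPM in the mutant as Nppa increased. The other members differed by less: between the low and high Nppa cells, Myl2 differed 1.06-fold in the control and 1.11-fold in the mutant, and the widest of the rest was Myl9, 1.26-fold higher in low Nppa cells of the control. Median UMIs per cell also differed along this split, from 11618 to 15897 in the control and from 12464 to 14678 in the mutant, and the part of depth in these values was not tested.

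Among the non-muscle groups, Myl7 was highest in epicardial cells. Epicardial cells carried at least 2 of 8 epicardial markers, among them Upk3b, Krt19 and Wt1, and under 1% of UMIs from 13 cardiomyocyte markers. Myl7 stood at 4950 CPM in control and at 5148 CPM in mutant epicardial cells, 77.4% (74.9 to 80.04) and 81.9% (79.9 to 84.0) of the ventricular level. A Myl7 UMI was present in 182 of 187 control and 317 of 321 mutant epicardial cells. Per cell, the median was 5340 CPM and the span from the 10th to the 90th percentile 1271 to 10375 CPM in the control, and 5847 CPM and 1246 to 11544 CPM in the mutant. Thus the RNA was spread over most of the cells, and the 5% of cells with most Myl7 held 21.7% and 14.6% of its epicardial UMIs.

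The other cardiac chains were not shared with the epicardium. Myl2 stood at 16.8 and 21.02 CPM in control and mutant epicardial cells, Myl3 at 25.2 and 13.7 CPM and Myl4 at 46.1 and 38.0 CPM. Summed, these 3 reached 0.421% (0.324 to 0.539) of their ventricular level in the control and 0.361% (0.290 to 0.443) in the mutant. Over the other 5 non-muscle groups the same sum ranged from 0.479% to 0.739% in the control and from 0.271% to 0.644% in the mutant, so the epicardial sum lay below the first range and within the second. Red cells are among these groups, and their haemoglobin UMIs are counted in the total. Myl7 made up 98.3% of the UMIs of the 4 cardiac chains in control epicardial cells and 98.6% in mutant ones. It made up 23.4% and 23.8% in ventricular and 70.0% and 68.8% in atrial cells.

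The gate itself fixed a low sum of muscle markers, since it required under 1% of UMIs from the same 13 genes. With cells above that threshold kept, Myl2, Myl3 and Myl4 together reached 43.4% of their ventricular level in control and 31.9% in mutant cells with epicardial markers. Under the gate the 13 cardiomyocyte markers summed to 1823 CPM in control and 1914 CPM in mutant epicardial cells, against 46849 and 45991 CPM in ventricular cells and 466 and 572 CPM in endothelial cells. In the epicardial cells none of the 13 was at 0 in the control and 1 was at 0 in the mutant. The fetal troponin Tnni1 gave 417 and 437 CPM of those sums, and Tnnt2, the cardiac troponin T, 53.1 and 38.0 CPM. Epicardial cells also carried mesenchymal markers, which the gate allowed.

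Depth and marker number moved the epicardial level without removing it. Cells under 4000 UMIs stood at 6384 CPM in the control and 6601 CPM in the mutant, and deeper ones at 3659 and 3509 CPM. Cells with 2, 3 and 4 or more epicardial markers stood at 6076, 5683 and 4013 CPM in the control and at 5676, 5811 and 3977 CPM in the mutant. Thinned to 1500 UMIs, 94.7% of control and 95.9% of mutant epicardial cells held a Myl7 UMI, against 6.35% and 10.3% of endothelial and 7.06% and 7.28% of red cells. In clusters drawn without the family and named from the same markers, the epicardial clusters were wider, with 531 and 894 cells, and Myl7 there was 39.4% and 38.3% of the ventricular level.

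Mesenchymal cells were mixed for Myl7. The group stood at 847 CPM in the control and 1196 CPM in the mutant, with the RNA in 28.1% and 33.9% of cells, or 24.4% and 29.9% after thinning to 1500 UMIs, for which 261 control and 181 mutant cells were too shallow. The 110 control and 235 mutant cells with a single epicardial marker stood at 4468 and 3903 CPM. Those without any stood at 372 and 580 CPM, and among them cells with Tcf21, a factor of epicardium-derived fibroblasts, stood at 453 and 685 CPM. Cells with Sox9, a factor of the valve cushions, and no Tcf21 stood at 31.4 and 34.1 CPM, against 50.3 and 34.1 CPM of Myl4 in the same cells. The mesenchymal level thus went with the epicardial markers of the cells. In the clusters drawn without the family, where the epicardial ones were wider, it was 2.92% and 2.83% of the ventricular level in place of 13.3% and 19.0%.

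In the other non-muscle cells the cardiac chains were at trace levels. Myl7 stood at 59.9 and 161 CPM in control and mutant endothelial cells, at 59.4 and 73.9 CPM in macrophages, at 79.9 and 57.2 CPM in red cells and at 226 and 74.4 CPM in outflow wall cells. All 4 chains together reached 0.591% (0.504 to 0.687) of the ventricular level in control and 1.06% (0.963 to 1.17) in mutant endothelial cells. In red cells, which have no sarcomeres, they reached 0.660% (0.619 to 0.702) and 0.595% (0.560 to 0.633). These levels came from 970 UMIs in control and 1041 UMIs in mutant red cells. Without haemoglobin and mitochondrial UMIs the red cell values were 2.85% in the control and 2.07% in the mutant.

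The mix of the 4 chains in these traces was set beside that in near-empty barcodes. The control table lists 43861 barcodes with 10 to 99 UMIs, which held 754078 UMIs in all, and the mutant table starts at 500 UMIs. In near-empty barcodes Myl2, Myl3, Myl4 and Myl7 gave 18.1%, 19.4%, 25.4% and 37.1% of the 4. In control red cells they gave 16.3%, 11.9%, 27.5% and 44.3%, in control endothelial cells 13.2%, 14.4%, 35.3% and 37.1%, and in control macrophages 13.6%, 18.2%, 31.8% and 36.4%. Control outflow wall cells stood apart from these, at 4.08%, 12.2%, 20.4% and 63.3% of 98 UMIs. In the mutant Myl7 gave 57.6% in outflow wall and 57.1% in endothelial cells, and 36.2% and 36.3% in macrophages and red cells. Few cells weighed heavily in these shares. The 5% of cells with most Myl7 held 66.1% of its 62 UMIs in control and 58.8% of its 34 UMIs in mutant outflow wall cells. In endothelial cells they held 79.0% of 62 UMIs in the control and 84.1% of 232 UMIs in the mutant. Of the UMI counts in near-empty barcodes the 4 chains made up 1.78%, against 2.73% in ventricular and 0.0180% in red cells. The Myl7 share of 37.1% in near-empty barcodes lay far below the 98.3% of epicardial cells.

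**Figure D4:**
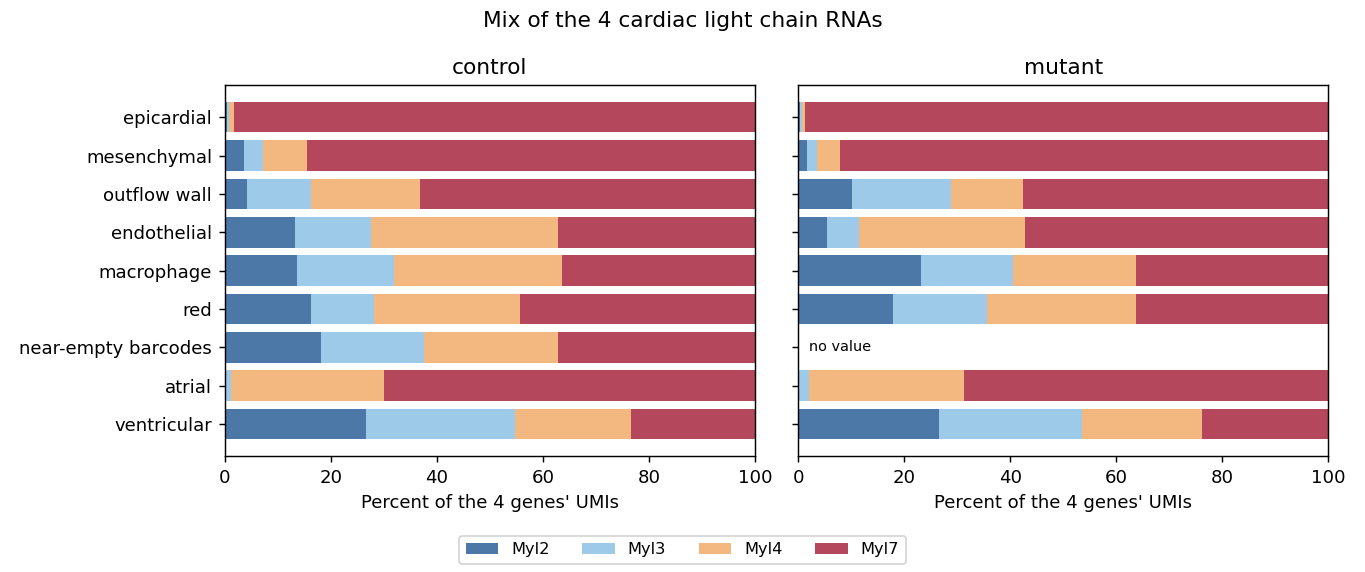
Share of each of 4 cardiac light chains (Myl2, Myl3, Myl4, Myl7) in their summed UMIs, in percent (horizontal axis), for 8 cell groups and the near-empty barcodes of each library; the mutant table lists no barcodes under 500 UMIs and has no value there. Epicardial bars are 98.3% and 98.6% Myl7, while red cells and macrophages show all 4 chains.

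The non-muscle chains had their own order. Myl6 lay between 3155 and 6278 CPM in the 5 non-muscle groups other than red cells of the control and between 2444 and 4256 CPM in those of the mutant, and at 647 and 685 CPM it was the most abundant member in red cells. Myl12a was highest in mesenchymal cells, at 1390 and 1346 CPM, next to outflow wall cells at 1312 and 1216 CPM. Myl12b was lower in cardiomyocytes than in every non-muscle group but red cells: 130 CPM in control ventricular cells against 654 CPM in epicardial cells, and 120 against 711 CPM in the mutant. Both were low in red cells with haemoglobin UMIs counted in the total, at 34.4 and 59.9 CPM for Myl12a and 14.9 and 24.4 CPM for Myl12b.

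Apart from the 15 mutant cells with megakaryocyte markers given above, Myl9 separated the mesenchymal groups from the rest of the non-muscle cells. It stood at 1122 and 372 CPM in control and mutant outflow wall cells, 377 and 244 CPM in mesenchymal cells and 133 and 106 CPM in epicardial cells. In endothelial cells it was at 14.5 and 31.9 CPM, against 24.0 and 18.9 CPM in red cells. Myl1 was near 0 outside the muscle, with 1 to 11 UMIs in each non-muscle group except control macrophages, where no UMI in 269466 allows up to 11.1 CPM.

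Some members share sequence at their 3′ ends, where the tags lie. Of the 60-base words in the last 300 bases of its GENCODE M21 coding transcripts, Myl12a shared 37.5% with other annotated genes. Of all its words, 11.8% were shared with the Myl12b gene counted here, its neighbour on chromosome 17. Myl12b shared 30.7% with a second annotated gene of the same symbol, which the count tables do not list and which overlaps both on the same strand. That second gene also shared words with Myl12a. The counts of Myl12a and Myl12b and the split between them are therefore uncertain. Myl6 shared 19.1% and Myl1 24.1% with pseudogenes that the count tables do not list. Myl2, Myl3, Myl4, Myl7 and Myl9 shared none. No annotated gene overlaps Myl7 or Myl9, and Myl2, Myl3, Myl4, Myl12a and Myl12b overlap genes of the other strand, which counting without strand would not tell apart.

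Pooled over a chamber, few members passed 1.5-fold between the genotypes in muscle. In ventricular cells 1 of 9 members passed 1.5-fold, against 0.64% of 5312 genes, and in atrial cells 1 of 9, against 1.09% of 5679 genes. The remaining pooled ratios in ventricular cells ran from 0.923 for Myl3 to 1.01 for Myl9 and Myl4. For Myl7 the pooled ratio of 0.983 held opposite differences by Nppa class. Mutant cells stood lower in the class under 1, at 7217 against 8556 CPM. They stood higher in the middle class, at 5558 against 3781 CPM, and in the class of 10 or more, at 5012 against 3631 CPM. With 1 library for each genotype, these differences cannot be told apart from differences between embryos or preparations.

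Myl1 was the ventricular member past 1.5-fold. Mutant ventricular cells held 146 CPM and control ones 76.8 CPM, a ratio of 1.91 (1.80 to 2.02). A Myl1 UMI was found in 68.6% of mutant and 49.1% of control cells, or in 17.4% and 9.78% after thinning to 1500 UMIs. The mutant was higher in each of the 3 Nppa classes given above. In atrial cells the ratio was 1.04 (1.01 to 1.07). Atrial markers made up a share of 0.0795 of chamber marker UMIs in mutant and 0.0948 in control ventricular cells.

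Myl3 was the atrial one. Mutant atrial cells held 933 CPM and control ones 571 CPM, a ratio of 1.63 (1.57 to 1.70), and Myl2 beside it at 73.8 and 56.3 CPM, 1.31-fold (1.15 to 1.49). The atrial cells of the mutant also held more of Myh7, the ventricular heavy chain, 2.21-fold, and of Acta1, skeletal actin, 2.14-fold. Atrial markers made up a share of 0.916 of chamber marker UMIs in mutant atrial cells and 0.953 in control ones, and the part of this difference in the Myl3 value was not tested. Myl3 did not pass 1.5-fold with equal weight per cell, in the clusters drawn without the family, or with chambers called by Myl2 and Myl7, at log2 ratios of 0.56, 0.50 and 0.54. Myl2 passed instead in the last of these, at 0.60. Both passed with a stricter chamber gate, Myl3 at 0.62 and Myl2 at 0.65, and Myl2 was at 0.92 without the cells of highest doublet score. Over all alternatives the atrial ratio of Myl2 ran from -0.23 to 0.92, so its direction was not settled.

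In epicardial cells, the cells where Tbx18-Cre is meant to act, none of the 8 members tested passed 1.5-fold, against 10.9% of 6670 genes. This is a count past a fold and not a test. With the cardiomyocyte threshold doubled Myl2, Myl3 and Myl4 passed, at log2 ratios of 2.43, 2.41 and 1.35. Myl3 passed in the other direction with looser cell limits, equal weight per cell or a smaller pseudocount, at -0.62, -0.65 and -0.83. The Myl7 ratio was 1.04 (0.998 to 1.08). In mesenchymal cells 1 of 8 did, against 1.75% of 6228 genes: Myl9 was at 244 CPM in mutant and 377 CPM in control cells, a ratio of 0.646 (0.588 to 0.710). Its log2 ratio of -0.61 lay close to the limit, and at -0.57 with the cardiomyocyte threshold halved and -0.54 with equal weight per cell it did not pass. Acta2, smooth muscle actin, was lower beside it, at 552 against 883 CPM. Myl7 was 1.41-fold (1.34 to 1.49) higher in mutant mesenchymal cells, where the cells with a single epicardial marker numbered 235 of 1506 against 110 of 896.

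In outflow wall cells 5 of 8 were lower in the mutant (Myl3, Myl4, Myl6, Myl7 and Myl9), against 41.2% of 7452 genes past 1.5-fold in either direction. Myl6 stood at 2444 against 6278 CPM, a ratio of 0.389 (0.361 to 0.420), and Myl9 at 372 against 1122 CPM, a ratio of 0.331 (0.273 to 0.401). The group held 71 mutant and 100 control cells with median UMIs of 3046 and 1781, and the part of depth was not tested. In the clusters drawn without the family 3 members passed there. Myl6 did not, at a log2 ratio of -0.44 in place of -1.36, and Myl3 and Myl7 turned, to 0.28 and 0.48.

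In endothelial cells 2 of 8 were higher, Myl7 and Myl9, against 6.17% of 6175 genes past 1.5-fold. The log2 ratio of Myl7 was 1.29, from 232 mutant and 62 control UMIs, and that of Myl9 was 0.78, from 46 and 15 UMIs. The count ran from 0 to 5 over the alternatives. It was 0 without the cells of highest doublet score, with Myl7 at 0.09 and Myl9 at 0.31, and 0 with the cardiomyocyte threshold halved, with Myl7 at -0.33 and Myl9 at 0.01. Equal weight per cell put Myl7 at 0.08, so neither difference held across the ways of choosing cells.

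In macrophages 1 was higher, Myl2, and 1 lower, Myl9, against 30.3% of 5696 genes past 1.5-fold. Myl2 there rested on 16 mutant and 6 control UMIs, and in the clusters drawn without the family it turned, to a log2 ratio of -1.51. Among red cells 1 was higher, Myl12a, against 17.2% of 1549 genes past 1.5-fold. Its log2 ratio was 0.66, and it did not pass with equal weight per cell, at 0.56, or without haemoglobin and mitochondrial UMIs, at 0.46.

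**Figure D5:**
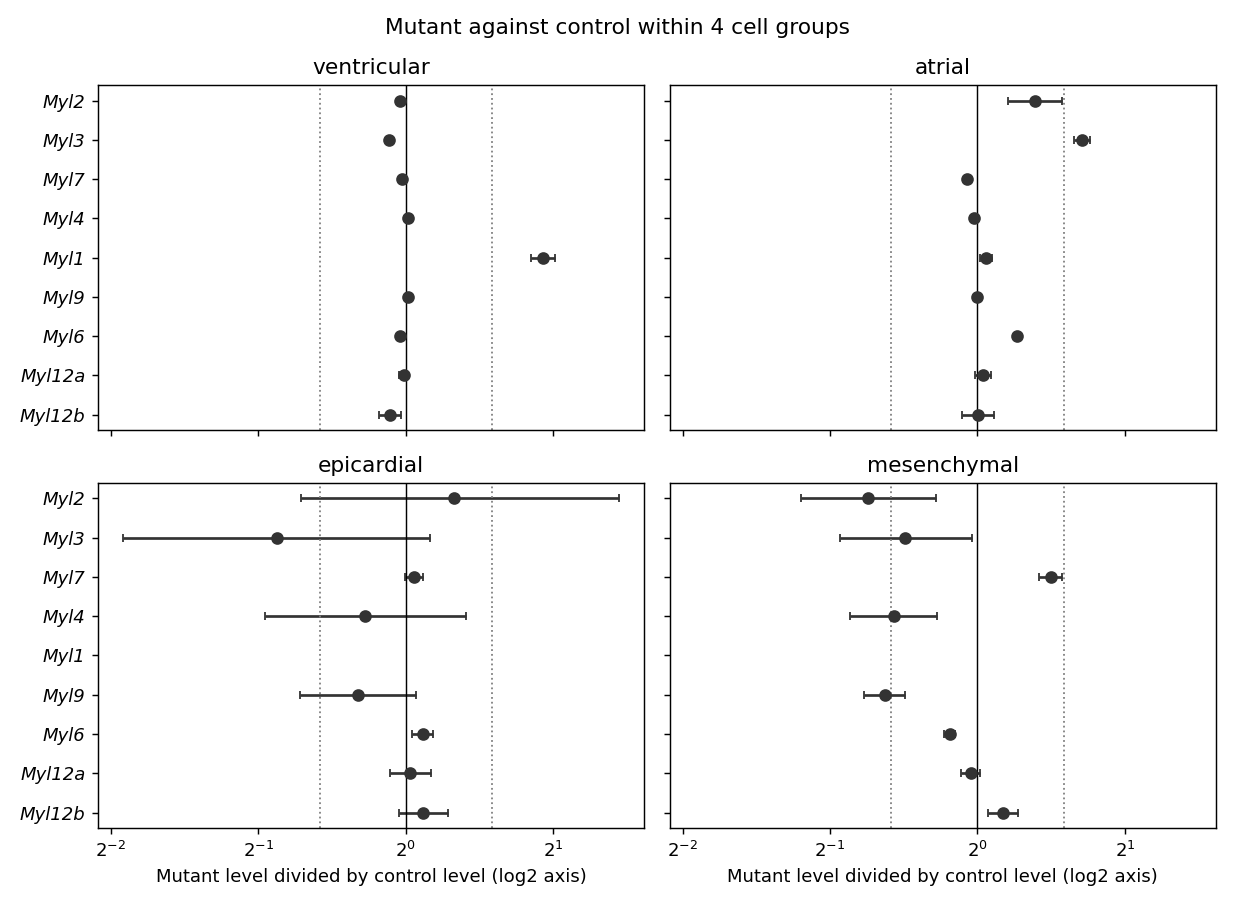
Mutant level divided by control level (log2 axis) in 4 cell groups; bars are exact 95% counting intervals, the solid line marks equal levels and the dotted lines 1.5-fold, and Myl1, at under 10 CPM on average in epicardial and mesenchymal cells, is left out there. Members count as past 1.5-fold only after 10 CPM are added to both levels, so sparse genes such as Myl3 in epicardial cells lie beyond a line without being counted; Myl1 in ventricular, Myl3 in atrial and Myl9 in mesenchymal cells are counted.

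The partners of the light chains were read from lists. Of 12 myosin heavy chain genes, 3 had at least 10 CPM on average in the chambers: Myh6, the atrial heavy chain, was 8.93-fold higher in control and 9.93-fold higher in mutant atrial cells, Myh7 was lower there, and both are markers of the chamber gate. The non-muscle heavy chain Myh10 stood at 49.7 and 55.1 CPM in control and mutant ventricular cells and at 165 and 108 CPM in epicardial cells. Of 3 other light chain genes, 1 was measurable in the chambers and did not pass 2-fold. Of 11 genes of light chain kinases and phosphatase, 7 were measurable in the chambers and 0 passed 2-fold in either library.

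Mylk3, the cardiac light chain kinase, stood at 50.1 CPM in ventricular and 60.9 CPM in atrial control cells. It also stood at 23.6 CPM in control and 30.9 CPM in mutant red cells, from 127 and 204 UMIs, when Tnnt2 there was at 18.6 and 14.4 CPM. Of 12 thin and thick filament partners, 1 was higher in atrial cells of both libraries, the tropomyosin Tpm2, and Acta2 was lower in the control. Between the genotypes 0 of 3 heavy chains, 0 of 7 kinase and phosphatase genes and 0 of 12 filament partners passed 1.5-fold in ventricular cells. In mutant atrial cells 1 heavy chain (Myh7) and 1 filament partner (Acta1) were higher. In mutant epicardial cells 1 of 6 kinase and phosphatase genes and 2 of 8 filament partners were lower. Over all 6670 genes tested there, 10.9% passed 1.5-fold in either direction. The phosphatase subunit Ppp1r12a stood at 48.5 CPM against 79.7 CPM in the control, and Acta2 at 159 against 253 CPM. The filament gene Ttn stood at 11.3 against 25.2 CPM, from only 14 mutant and 18 control UMIs.

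For each member, the genes with the most similar pattern were sought over 16 points, the 8 cell groups of both libraries, by Pearson's r of log2(CPM + 10). The points share libraries and depth, so r is a description. Myl2 went with Mb (r = 0.97), Kcne1 and Pln, and Myl3 with Myh7 (0.99), Ckm and Pln, of which Pln and Myh7 are gate markers. Myl4 went with Cap2 (0.99), Trim55 and Tnni3, of which Tnni3 is also a gate marker. Myl1 went with Itgb1bp2 (0.98), D830030K20Rik and Myoz1. Myl7 went with Aif1l (0.97), Hcfc1r1 and Cryab. Myl9 went with Fxyd1 (0.98), Nexn and Cnn1. Myl6 went with Mrpl52, Ndufa7 and Lyrm2, Myl12a with Hmgn1, Cbx5 and Rhoc, and Myl12b with Cep164, Mrpl17 and Pdcd6.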

How the data were processed

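The values deposited by the authors are counts of UMIs per gene and barcode. Per the file headers Cell Ranger 3.0.2 made them, and Seurat is named besides in the submitters' processing notes. Neither a genome build nor the use of strand is given in the sources used here. The control library held 49323576 UMIs and the mutant library 48527471 UMIs. Cells with at least 1000 UMIs, 500 genes and at most 20% mitochondrial UMIs, 4100 and 4640 in number, were kept, with medians of 5897 and 4046 UMIs. Red cells had at least 50% haemoglobin UMIs and needed no gene minimum.

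Cardiomyocytes had at least 1% of non-haemoglobin UMIs from 13 markers. They were atrial when atrial markers gave at least 80% of at least 5 chamber marker UMIs, ventricular at 30% or less, and otherwise intermediate. Non-muscle cells carried at least 2 markers of 1 class. Below the 1% cardiomyocyte limit, cells meeting more than 1 non-muscle gate were left out as likely doublets (68 control and 158 mutant). As an exception, epicardial and outflow wall cells could carry mesenchymal markers. Cardiomyocytes with markers of another class were not left out of the chamber groups. The automatic threshold of a Scrublet-type score marked 0 cells and so had not worked. The members, gene lists and comparisons were chosen with earlier results of these data known. The thresholds, the exception above and the splits by Nppa, depth and epicardial marker number were set with the data at hand.

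UMIs were summed per group and library (numpy 2.4.6, scipy 1.17.1, pandas 2.3.3). Levels have exact Poisson, ratios exact conditional binomial and shares Clopper-Pearson intervals, at 95%. Fold counts use log2((CPM + 10)/(CPM + 10)) where the mean is at least 10 CPM. A count of 0 was read as allowing 3 UMIs. The computation was tested on simulated data. All 9 members are named, with 3 genes most alike for each among genes of at least 50 CPM in a group. Groups were also drawn with Leiden clusters (leidenalg 0.10.2, scanpy 1.11.5, 30 components, resolution 1) made without the family. Positions are from GENCODE M21.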

Additional observations from a re-analysis of the deposited data

Results flagged for a closer look

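Some members stood on opposite sides of equality in different cell groups when the mutant was set against the control. With 1 library per genotype none of these differences between groups was tested, and each value below is a log2 ratio of mutant to control after 10 CPM are added to both levels. Myl3 stood at 0.70 in atrial cells and -0.66 in outflow wall cells, the latter from 11 mutant and 12 control UMIs. Myl7 stood at 1.29 in endothelial cells, from 232 and 62 UMIs, and at -1.48 in outflow wall cells. Myl9 stood at 0.78 in endothelial cells, at -0.61 in mesenchymal cells, at -1.57 in outflow wall cells and at -1.45 in macrophages, the last from 2 mutant and 9 control UMIs.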

How the results depend on the processing

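No paired analysis was possible because each genotype had 1 library, so no replicate could be left out either. Under all alternatives run, 4 members stayed at least 2-fold higher and 2 at least 2-fold lower in atrial cells of both libraries. With chambers called by Myl2 and Myl7, the contrasts of these genes were set by the gate and are no check. Between genotypes 1 member stayed past 1.5-fold in ventricular cells under all alternatives, and the log2 ratio of Myl1 there ran from 0.75 to 0.92. The cause of the differences below was not tested.

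The count of atrial members past 1.5-fold was 0 with equal weight per cell, 0 with Leiden clusters made without the family, 2 without the top 6% of doublet scores and 2 with the stricter chamber gate. In epicardial cells it was 1 with a minimum of 500 UMIs and 200 genes, 3 with the cardiomyocyte threshold doubled, 1 with equal weight and 1 with a pseudocount of 1 CPM. In mesenchymal cells it was 0 with the cardiomyocyte threshold halved, 4 with it doubled, 0 with equal weight and 2 with a pseudocount of 1 CPM.

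Myl7 in epicardial cells, as a percent of the ventricular level in the control and mutant, was 91.2 and 97.8 with equal weight, 39.4 and 38.3 with Leiden clusters, 66.1 and 67.6 with 3 markers, 142 and 104 with cells above the cardiomyocyte threshold kept, and 99.9 and 105 in cells of 1000 to 4000 UMIs. In the control it was 80.7 without the top doublet scores and 82.8 with the stricter chamber gate. Keeping cells above the cardiomyocyte threshold lets in cells that meet the cardiomyocyte gate and carry markers of another class. Myl2, Myl3 and Myl4 then reached 43.4% and 31.9% in epicardial cells, and whether the added cells are doublets was not tested.

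The 4 cardiac chains in endothelial cells, as a percent of the ventricular level in the control and mutant, were 1.05 and 0.930 with equal weight, 2.33 and 0.897 with Leiden clusters, 99.0 and 92.1 with cells above the threshold kept, and 1.18 and 0.702 in cells of 1000 to 4000 UMIs. In the control they were 0.492 with 3 markers. In the mutant they were 0.435 with the cardiomyocyte threshold halved, 1.78 with it doubled and 0.531 without the top doublet scores. In red cells they were 2.85 and 2.07 without haemoglobin and mitochondrial UMIs, 0.498 and 0.547 without the top doublet scores, 0.366 and 0.292 with Leiden clusters, 0.719 and 0.404 with at least 500 genes, and, in the mutant, 0.798 with equal weight.

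Of the 72 mutant to control log2 ratios, 40 took both signs over the alternatives. Among those of members counted as past 1.5-fold, the following turned. With Leiden clusters, Myl3 and Myl7 in outflow wall cells were at 0.28 and 0.48, Myl7 and Myl9 in endothelial cells at -0.34 and -0.99, and Myl2 in macrophages at -1.51. With the cardiomyocyte threshold halved, Myl7 in endothelial cells was at -0.33. Others under 1.5-fold ran widely: Myl2 in atrial cells from -0.23 to 0.92, Myl3 and Myl4 in epicardial cells from -0.83 to 2.41 and from -0.35 to 1.35, Myl2, Myl3 and Myl4 in endothelial cells from -2.57 to 1.45, -2.77 to 1.16 and -1.13 to 1.09, and Myl7 in macrophages from -5.36 to 0.31. Shallow cells limit the traces: a count of 0 allows 11.1 CPM in control macrophages and 10.9 CPM in control outflow wall cells. The stricter chamber gate and the limit to 1000 to 4000 UMIs were chosen after seeing the data.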

Other observations

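Cardiomyocytes with too few chamber marker UMIs to be placed, 90 in the control and 58 in the mutant, stood at 15425 and 18506 CPM of Myl7, between the ventricular and atrial levels. Cells that no gate took, 187 and 248, stood at 1749 and 942 CPM of Myl7, with a UMI in 33.7% and 31.9% of them. The 15 mutant cells with megakaryocyte markers held Myl9 at 1715 CPM, from 72 UMIs in 10 cells, while the 2 such control cells held 0 UMIs of 11335.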
